A study of Mus musculus with 6 samples.

Results

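The TGF-beta ligand genes Tgfb1, Tgfb2 and Tgfb3, the receptor genes Tgfbr1, Tgfbr2 and Tgfbr3, and 3 genes that respond to the pathway, Tgfbi, Smad7 and Skil, were measured on Affymetrix 3' arrays in cells of mouse skin tumours. These 9 genes were taken by their names, of 18193 genes on the array with an annotated symbol, with earlier results of these data known. All 9 were represented, by 23 probe sets in all, and each gene was read from its brightest probe set, judged by the mean of the 6 arrays. The values are on the log2 scale, so that a difference of 1 is a doubling. Values of single arrays are listed by replicate number, from 1 to 3 in each group. The sample on an array is called a tumour below, though it may hold cells of more than 1 tumour.

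The WT group comprised 3 wild-type mice and the EKO group 3 mice deficient in E-FABP, the epidermal fatty acid binding protein that Fabp5 encodes. All mice of both groups had received the carcinogen DMBA and the tumour-promoting phorbol ester TPA for 5 months, and no untreated skin was among the samples. Tumours were digested to single cells before RNA extraction. The labels call these cells keratinocytes, name no sort, and call the 3 replicates of each group biological. The labels are silent on age, sex, strain background, the way Fabp5 was disrupted and the number of tumours behind each array.

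TGF-beta ligands are secreted as latent complexes that are activated outside the cell, in skin largely by integrins. The active ligand brings together the type II receptor (Tgfbr2) and the type I receptor (Tgfbr1), which phosphorylates the signal transducers Smad2 and Smad3, and these enter the nucleus with Smad4. In keratinocytes the pathway is known to arrest the cell cycle, and in skin carcinogenesis it restrains early growth and favours invasion and a matrix-rich stroma later.

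Fabp5 served as the check of the labels, with log2 values of 14.80 to 14.94 in WT and 7.98 to 8.30 in EKO tumours, and all 6 arrays matched their group. The arrays had medians from 5.41 to 5.43 and lower quartiles from 3.91 to 3.97, and any pair correlated across genes with r from 0.985 to 0.994. Keratinocyte markers, 7 of 8 listed being measured, had a mean level of 13.41 to 13.65 in the 6 arrays and lay above the array median in all of them. Markers of stroma, blood cells, muscle, fat and pigment cells were measured as well, and all but the platelet marker Ppbp lay above the lower quartile in at least 1 array. In such bulk RNA fewer cells of a type and less RNA per cell cannot be told apart. Macrophage and dendritic cell markers had a mean level of 7.47 to 7.83 in EKO and 7.90 to 8.21 in WT arrays. EKO means were lower for 8 of 8, with Mrc1, C1qa and C1qb leading at differences of -1.04, -0.59 and -0.67, none past the threshold. Gene by gene, the groups did not overlap for 4 of the 8, against 12% of all genes, and the other markers overlapped. B and plasma cell markers had a mean level of 6.03 to 6.15 in EKO and 5.91 to 5.96 in WT, but 3 of 5 had higher and 2 of 5 lower EKO means, and Jchain, with the largest difference (0.69), was below the array median in all 6 arrays. The mean levels of the other 11 marker lists overlapped between the groups.

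None of the 9 genes differed between EKO and WT tumours beyond the spread between arrays of a group. With limma and Benjamini-Hochberg adjustment over all 18193 genes, 0 of 9 passed an adjusted p of 0.05, where 0.0055% of all genes did (Fabp5 alone). At an unadjusted p under 0.05 the count was also 0 of 9, against 7.13% of all genes. In 0 of 9 genes were the 3 EKO values clear of the 3 WT values, against 12% of all genes. The differences, always EKO minus WT, ran from -0.40 for Tgfbr3 to 0.36 for Smad7, and their median was -0.04 where that of all genes was 0.0001. The 95% intervals of the 9 differences lay between -0.89 and 0.84, less than a log2 unit either way, and each held 0.

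**Figure D1:**
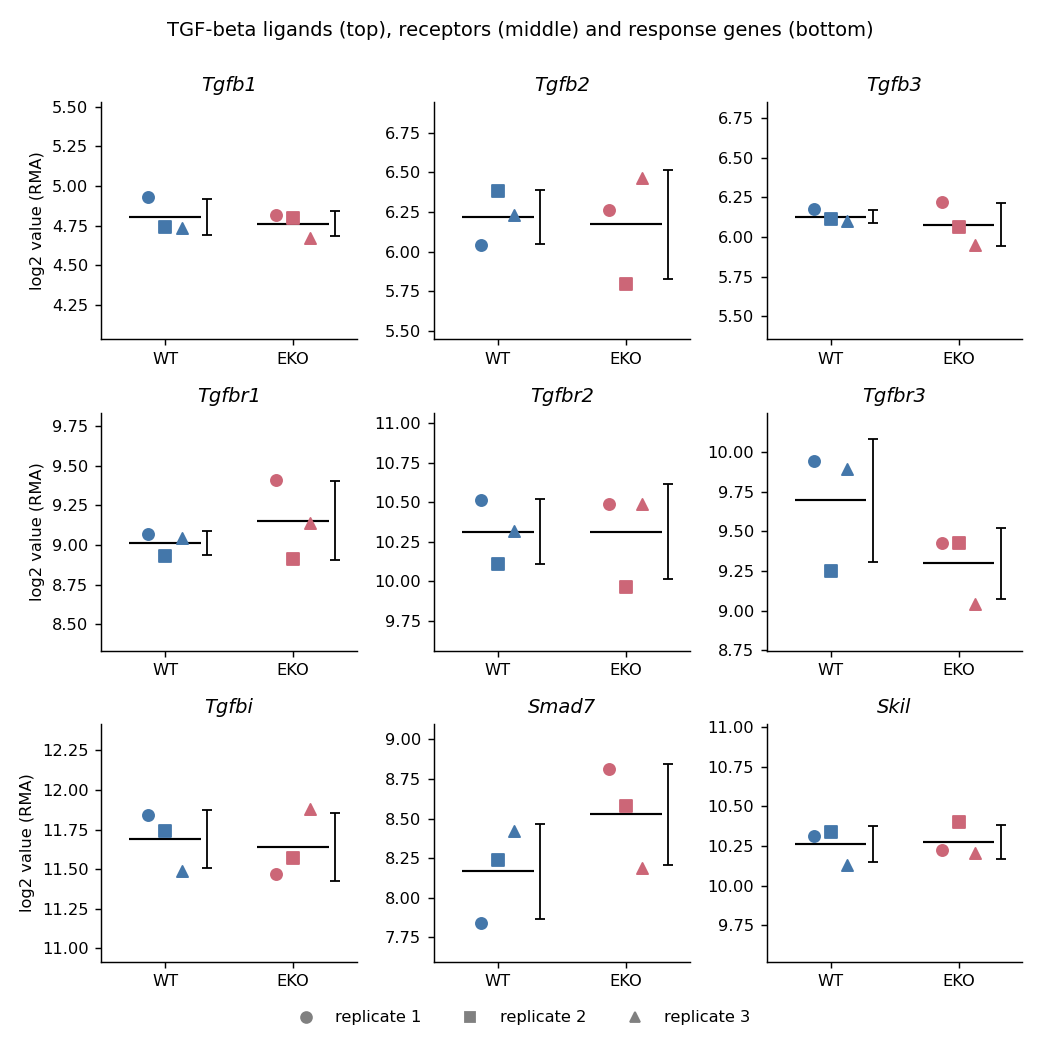
Log2 value (y axis, each panel spanning the same 1.5 log2 units) of the 9 genes in 3 WT (blue) and 3 EKO (red) arrays, with symbols for the replicate, a line at each group's mean and a bar of 1 SD at its side. The groups overlap in every panel, and Tgfbr3 and Smad7 have the largest differences between means, -0.40 and 0.36.

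By the probe sets used, the 3 ligand genes had nearly equal means in both groups. Tgfb1 encodes the most widely expressed ligand, made by leukocytes, platelets and epithelium. It read 4.93, 4.74 and 4.73 in the WT tumours, and 4.82, 4.80 and 4.67 in the EKO tumours. WT replicate 1 was highest and EKO replicate 3 lowest, and the others lay close together. The difference was -0.04 (SE 0.0951, limma adjusted p = 0.943), a ratio of 0.972 with a 95% interval of 0.832 to 1.14. Both Tgfb1 probe sets lay below the median of all probe sets in each of the 6 arrays, so the signal was low, and the data carry no detection calls. Levels of different genes were not set against each other, since probe sets differ in their response.

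Tgfb2 encodes a ligand of epithelium and hair follicle. Its log2 values were 6.04, 6.38 and 6.23 in WT and 6.26, 5.79 and 6.46 in EKO tumours. The lowest and the highest of the 6 values were both EKO tumours, replicates 2 and 3. Its difference was -0.04 (SE 0.182, limma adjusted p = 0.972). The 4 Tgfb2 probe sets did not have 1 sign. The 2 brightest gave -0.04 each, and the 2 dimmer ones gave 0.17 and 0.34. In a limma fit over 34945 probe sets the last had an unadjusted p of 0.0435 and an adjusted p of 0.663. That dimmest probe set read 3.90 to 4.29 in WT and 4.24 to 4.63 in EKO tumours, close to the lower quartile of the arrays, so no direction can be given for Tgfb2.

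Tgfb3 encodes the third ligand, known from palate fusion and wound repair. Its values were 6.18, 6.11 and 6.10 in WT and 6.22, 6.06 and 5.95 in EKO tumours. EKO tumours lay on both sides of the WT values. The difference was -0.05 (SE 0.0964, limma adjusted p = 0.927), a ratio of 0.965 with a 95% interval of 0.824 to 1.13.

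Among the receptors, neither Tgfbr1 nor Tgfbr2 differed past the threshold. Tgfbr1, the type I receptor kinase, read 9.07, 8.93 and 9.04 in WT and 9.41, 8.91 and 9.14 in EKO tumours. EKO replicate 1 was highest and EKO replicate 2 lowest of the 6. The EKO tumours thus spread more (SD 0.247) than the WT tumours (SD 0.0739). The difference was 0.14 (SE 0.134, limma adjusted p = 0.855). It was 0.26 without EKO replicate 2, 0.01 without EKO replicate 1 and 0.0018 with the mean over probe sets. The other 2 Tgfbr1 probe sets, at -0.15 and 0.01, were dim, under the lower quartile of every array.

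Tgfbr2, the type II receptor that binds the ligand first, read 10.52, 10.11 and 10.32 in WT and 10.49, 9.97 and 10.49 in EKO tumours. Replicate 2 was the lowest of its group in both genotypes. The means were 10.31 ± 0.204 in WT and 10.31 ± 0.30 in EKO tumours (mean ± SD, n = 3 each), with a ratio of 0.999 and a 95% interval of 0.752 to 1.33 (limma adjusted p = 0.999). A second Tgfbr2 probe set had a difference of -0.03, and another was under the lower quartile of every array.

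Tgfbr3 encodes betaglycan, a co-receptor that presents ligand, Tgfb2 above all, to the type II receptor. It had the lowest EKO mean relative to WT of the 9 genes. Its values were 9.95, 9.25 and 9.90 in WT and 9.43, 9.43 and 9.04 in EKO tumours. WT replicates 1 and 3 lay above all EKO tumours, but WT replicate 2 lay within the EKO range. The difference was -0.40 (SE 0.208, 95% interval -0.89 to 0.09, limma adjusted p = 0.746). Leaving out WT replicate 2 gave -0.62, with an adjusted p of 0.737, and leaving out either WT replicate 1 or EKO replicate 3 gave -0.27. The adjusted p ran from 0.642 to 0.998 over the alternatives. The dimmer Tgfbr3 probe set, under the lower quartile of every array, gave -0.19.

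**Figure D2:**
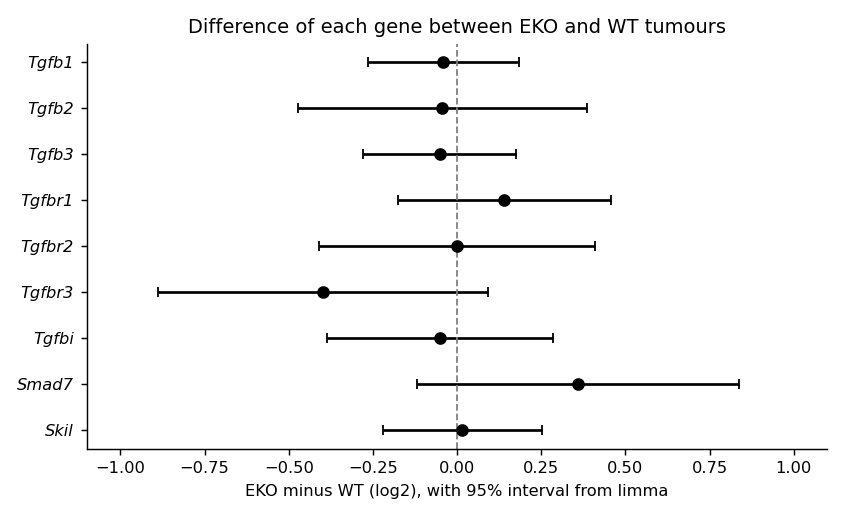
EKO minus WT difference of each of the 9 genes on the log2 scale (x axis), as a point with its 95% interval from limma. Every interval includes 0 and stays between -1 and 1, from -0.89 for the lower bound of Tgfbr3 to 0.84 for the upper bound of Smad7.

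Of the response genes, Smad7 had the largest positive difference of the 9, and Tgfbi and Skil were at -0.05 and 0.02. Smad7, the inhibitory SMAD that the pathway induces and that blocks and degrades the type I receptor, read 7.84, 8.24 and 8.42 in WT and 8.81, 8.58 and 8.19 in EKO tumours. EKO replicates 1 and 2 lay above all WT tumours, and EKO replicate 3 lay below 2 of them. The difference was 0.36 (SE 0.203, 95% interval -0.12 to 0.84, limma adjusted p = 0.76), a ratio of 1.28. Its second probe set read 5.64, 5.90 and 6.44 in WT and 6.71, 6.54 and 6.17 in EKO, with a difference of 0.49 (adjusted p = 0.685 in the fit over probe sets). In both probe sets WT replicate 1 was lowest, and WT replicate 3, EKO replicate 2 and EKO replicate 1 were highest, in that order upward, while EKO replicate 3 and WT replicate 2 changed places. Leaving out 1 array at a time moved the Smad7 difference between 0.20, without WT replicate 1, and 0.53, without EKO replicate 3, and its adjusted p ran from 0.527 to 0.998 over the alternatives.

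Tgfbi, which encodes a secreted matrix protein strongly induced by TGF-beta, read 11.84, 11.74 and 11.49 in WT and 11.47, 11.57 and 11.88 in EKO tumours. The range of the EKO tumours, 11.47 to 11.88, covered that of the WT tumours. Its difference was -0.05 (SE 0.142, limma adjusted p = 0.952), and all 4 Tgfbi probe sets had small negative differences, from -0.18 to -0.03. In each of the 4, WT replicate 1 and EKO replicate 3 were among the 3 highest arrays.

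Skil encodes SnoN, a repressor that holds SMAD complexes inactive and is itself induced by them. It read 10.31, 10.34 and 10.13 in WT and 10.22, 10.40 and 10.21 in EKO tumours. The groups overlapped, with ranges of 10.13 to 10.34 in WT and 10.21 to 10.40 in EKO tumours. The difference was 0.02 (SE 0.100, limma adjusted p = 0.984), a ratio of 1.01 with a 95% interval of 0.858 to 1.19. The dimmer Skil probe set gave -0.22.

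Arrays of 1 genotype differed from each other, and no array was at the same end for all genes. EKO replicate 2 was the lowest of the 6 arrays for 3 of the 9 genes, Tgfb2, Tgfbr1 and Tgfbr2, and EKO replicate 3 was the lowest for Tgfb1, Tgfb3 and Tgfbr3. WT replicate 1 was highest for Tgfb1, Tgfbr2 and Tgfbr3. The SD within groups was small for Tgfb1, Tgfb3 and Skil, at percentiles 25.2, 27.1 and 32.9 of all genes. It was large for Tgfbr3 and Smad7, at percentiles 91.1 and 90.6, and for Tgfb2 and Tgfbr2, at 87.4 and 85.5.

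Tgfbr3 and Smad7 were the 2 genes with an SD over the 6 arrays of at least 0.3, at 0.358 and 0.339. Of the 13 lists of cell type markers, those of skeletal muscle, of melanocytes and Schwann cells and of adipocytes varied most between arrays, with ranges of 3.55, 3.10 and 1.94 in mean log2 level. Skeletal muscle markers (6 genes, among them Mylpf, Tnnt3 and Ckm) had a mean level of 9.48, 5.93 and 7.59 in WT and 7.25, 6.26 and 6.07 in EKO tumours. Tgfbr3 was highest in the 2 arrays with the most muscle marker signal, WT replicates 1 and 3, and lowest in the 2 with the least, EKO replicate 3 and WT replicate 2. Adipocyte markers (3 genes, among them Adipoq) had 7.62, 5.68 and 7.17 in WT and 6.94, 6.15 and 6.08 in EKO tumours, again with WT replicates 1 and 3 highest and EKO replicate 3 and WT replicate 2 lowest. The mean levels of muscle markers were 7.66 in WT and 6.52 in EKO tumours and those of adipocyte markers 6.82 and 6.39. These gaps depended on WT replicates 1 and 2. Without WT replicate 1 the difference of Mylpf went from -1.16 to -0.43, that of Tnnt3 from -1.23 to -0.34, that of Ckm from -0.97 to -0.22 and that of Adipoq from -0.84 to -0.33. Without WT replicate 2 the same 4 genes were at -1.74, -2.18, -1.72 and -1.58. The part of these tissues in the Tgfbr3 values was not tested.

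The order of the arrays for Smad7 was in part that of another list. Melanocyte and Schwann cell markers, of which 4 of 6 were measured (Pmel, Mlana, Tyr and Dct, all of melanocytes), had a mean level of 6.26, 8.17 and 9.36 in WT and 9.22, 8.40 and 7.45 in EKO tumours. WT replicate 1, EKO replicate 3 and WT replicate 2 were the 3 lowest arrays both for these markers and for Smad7, in the same order for the Smad7 probe set used here but not for the second. Among the other 3 arrays, WT replicate 3 was highest for the markers and lowest for Smad7. The mean level of the markers was 7.93 in WT and 8.36 in EKO tumours. Bambi, a decoy receptor of the pathway named after its values were seen, also read lowest in WT replicate 1, at 7.20 against 8.47 and 10.01 in the other WT and 9.77, 9.41 and 9.03 in the EKO replicates. Their part in the Smad7 values was not tested.

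**Figure D3:**
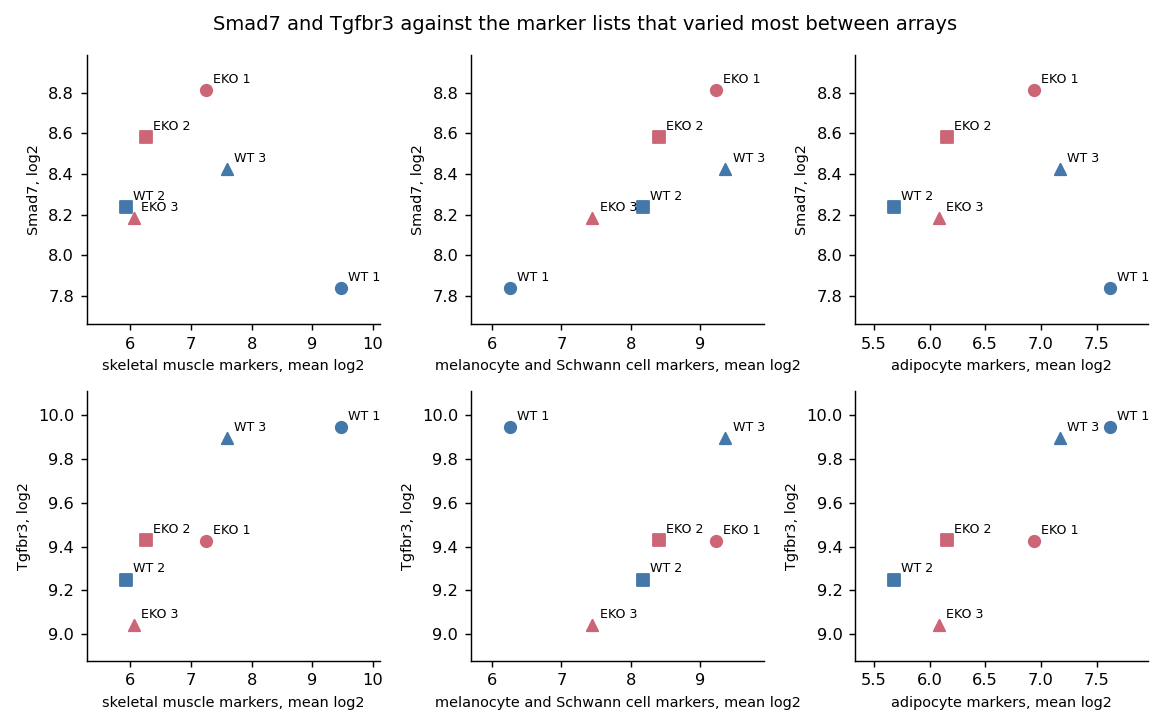
Log2 value of Smad7 (upper row) and Tgfbr3 (lower row) against the mean log2 level of skeletal muscle, melanocyte and Schwann cell, and adipocyte markers (x axes), 1 point per array, WT blue and EKO red. Smad7 is lowest and melanocyte markers are lowest, at 6.26, in WT replicate 1, and Tgfbr3 is highest where muscle and adipocyte markers are highest, in WT replicates 1 and 3.

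By the root mean square distance between values centred on each gene's mean, over the 6 arrays and leaving out predicted genes and unnamed loci, the genes most like Tgfbr3 were Scarb1 (distance 0.0829), Lpar1 (0.0891) and Hexa (0.1). Those most like Smad7 were Fras1 (0.0744), Mpzl1 (0.0952) and Repin1 (0.098). Fras1 read 5.53, 5.76 and 6.01 in WT and 6.28, 6.07 and 5.71 in EKO tumours, which puts the 6 arrays in the order that Smad7 did. With 6 arrays and 18193 genes some close matches are always found, and the 6 genes are named as a description.

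Around these 9 genes, 63 of 66 other listed genes of the pathway were measured, in 7 groups by role. None passed with limma over all genes, and at an unadjusted p under 0.05 there were 5 higher and 4 lower in EKO tumours, 14.3% of them against 7.13% of all genes. The list was drawn up with earlier results of these data known, so this share is no test of the pathway. For 7 of the 63, 11.1%, the groups did not overlap, close to the 12% of all genes. Their median difference was 0.04, with 36 higher and 27 lower by their means. Without EKO replicate 2, 3 of the 63 passed, Hmga2, Nox4 and Itgb8, and 42 of all genes did.

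**Figure D4:**
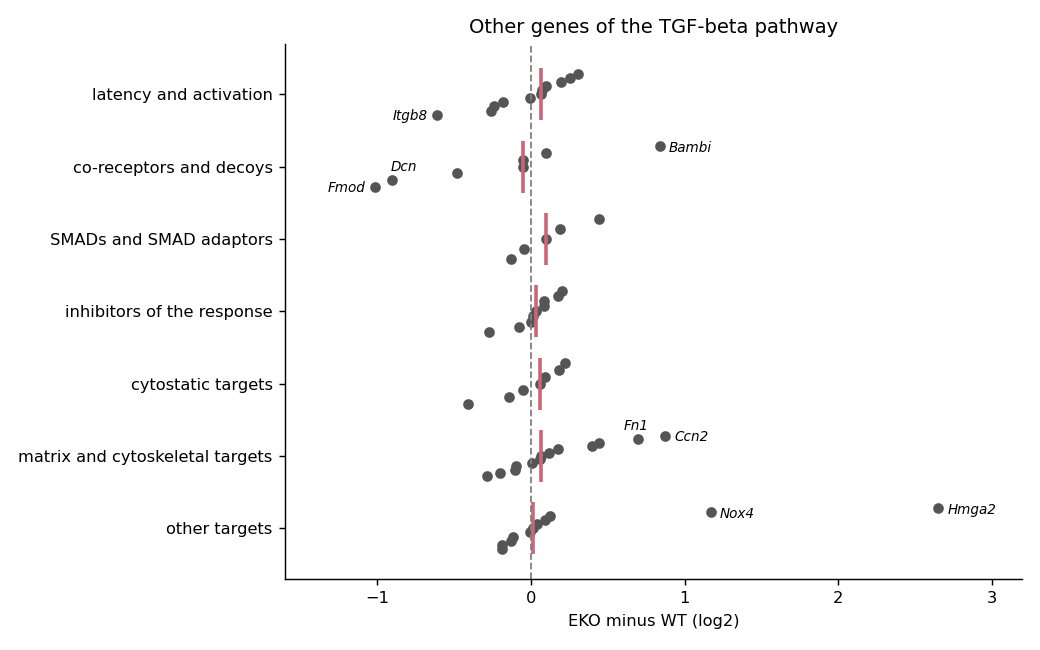
EKO minus WT difference on the log2 scale (x axis) of 63 other genes of the TGF-beta pathway in 7 groups by role, 1 point per gene, with the group median as a red line and genes beyond 0.6 in size named. The group medians lie between -0.06 and 0.10, and Hmga2 at 2.65 and Nox4 at 1.17 stand farthest from 0.

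Genes of latency and activation had no common direction, with 6 higher and 5 lower of 11 by their means and 0 past the threshold. Itgb8 encodes the beta subunit of an integrin that frees TGF-beta from its latent complex. It read 9.15, 9.03 and 8.93 in WT and 8.10, 9.07 and 8.09 in EKO tumours, so that EKO replicates 1 and 3 lay below all WT tumours and EKO replicate 2 among them. The difference was -0.61 (SE 0.26, limma adjusted p = 0.698) with all arrays and -0.94 (adjusted p = 0.0458) without EKO replicate 2, the range over the alternatives being 0.0458 to 0.998. Itgb6, the subunit of the other activating integrin of epithelium and named after its values were seen, split the arrays in the same way, at 6.27, 6.40 and 6.26 in WT and 5.94, 6.30 and 5.91 in EKO (difference -0.26, adjusted p = 0.717). Furin, the protease that cleaves the ligand precursors, had higher values in each EKO tumour (7.93 ± 0.0325 in WT, 8.18 ± 0.140 in EKO, difference 0.25, adjusted p = 0.662). Nrros, which anchors latent TGF-beta on macrophages and microglia, had lower values in each EKO tumour (difference -0.24, limma adjusted p = 0.659). So had the macrophage markers Mrc1, C1qa and C1qb, while most other markers of that list overlapped between the groups. The part of macrophages in the Nrros values was not tested.

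Among co-receptors and decoys, 5 of 7 had lower means and 0 passed. Fmod and Dcn, which encode the TGF-beta binding matrix proteoglycans fibromodulin and decorin, had differences of -1.02 (SE 0.337) and -0.90 (SE 0.294), each with a limma adjusted p of 0.625. Fmod read 8.10, 7.28 and 7.51 in WT and 5.96, 7.21 and 6.65 in EKO tumours, without overlap, while Dcn in EKO replicate 1, at 11.99, lay above WT replicate 2, at 11.92. The mean over probe sets gave -0.63 for Fmod and -0.60 for Dcn. Lrg1 had a difference of -0.48, which ran from -0.80 without WT replicate 2 to -0.20 without EKO replicate 3. The 8 fibroblast markers did not move one way, with 5 lower and 3 higher means. Among them Dpt was at -0.53, Col6a3 at 0.44 and Col5a1 at 0.56, the last 2 at 0.23 each without EKO replicate 1.

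Of the signal transducers and their adaptors, 3 of 5 had higher means and 0 passed. Smad3 read 7.48, 7.53 and 7.84 in WT and 8.30, 7.80 and 8.08 in EKO tumours, with EKO replicate 2 just under the highest WT value. Its difference was 0.44 (SE 0.156, limma adjusted p = 0.648), and 0.15 with the mean over probe sets. Smad2 and Smad4 had differences of -0.13 and 0.10. A group of 9 regulators of the response, mostly inhibitors such as ubiquitin ligases and SMAD corepressors, had differences from -0.28 to 0.20. The lowest was that of the deubiquitinase Usp15, which is not an inhibitor, and the highest that of the corepressor Tgif2. Pmepa1, which the pathway induces and which sequesters SMADs, was at 0.17. None of these passed, nor did any of 7 targets tied to growth arrest, with Cdkn1a at 0.18, Myc, which the pathway represses, at 0.22, and Id1 at -0.41, all at limma adjusted p of 0.761 or more. With the mean over probe sets Usp15 was at -0.06, Tgif2 at 0.04 and Smad4 at 0.04. Leaving out 1 array moved Pmepa1 between 0.06, without EKO replicate 1, and 0.32, without EKO replicate 3. It moved Cdkn1a between 0.12, without WT replicate 2, and 0.29, without WT replicate 3. Myc was at 0.08 without WT replicate 3, and Id1 was at -0.19 without EKO replicate 2.

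Matrix and cytoskeletal targets had higher EKO means for 9 of 13 genes, with a median difference of 0.07 and 0 past the threshold. Ccn2, connective tissue growth factor, read 8.19, 8.10 and 8.80 in WT and 9.07, 8.83 and 9.81 in EKO tumours, without overlap though EKO replicate 2 and WT replicate 3 were within 0.1 of each other. The difference was 0.87 (SE 0.285, limma adjusted p = 0.625). Fn1, which encodes fibronectin, had values of 8.53, 8.26 and 8.69 in WT and 9.53, 8.54 and 9.52 in EKO (difference 0.70, adjusted p = 0.673), and EKO replicate 2 lay within the WT range. Acta2, the smooth muscle actin of activated fibroblasts, had a difference of 0.44 (adjusted p = 0.775). Over the alternatives the difference of Ccn2 ran from 0.59 without EKO replicate 3 to 1.09 without WT replicate 3. That of Fn1 ran from 0.40 with the mean over probe sets to 1.03 without EKO replicate 2, and that of Acta2 from 0.14 to 0.70 under the same alternatives, and none passed. Fibroblast markers had a mean level of 8.93, 8.36 and 8.96 in WT and 9.14, 8.38 and 8.60 in EKO tumours, lowest in replicate 2 of both groups, and their part in these values was not tested.

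Of the remaining targets, 6 had higher and 5 lower EKO means, and 2 of them, Hmga2 and Nox4, were high in 2 EKO arrays. Hmga2, an architectural chromatin protein that TGF-beta can induce, read 5.67, 5.86 and 5.77 in WT and 9.16, 6.09 and 10.00 in EKO tumours. Nox4, an NADPH oxidase of activated fibroblasts, read 4.35, 4.76 and 4.32 in WT and 6.18, 4.36 and 6.40 in EKO. Its signal was low, below the array median, in all WT tumours and in EKO replicate 2. Both genes were thus high in EKO replicates 1 and 3, while in EKO replicate 2 Nox4 was within the WT range and Hmga2 just above it. With all arrays neither passed (differences 2.65 and 1.17, limma adjusted p = 0.63 and 0.703). Without EKO replicate 2 both did (differences 3.82 and 1.82, adjusted p = 0.00605 and 0.0202). Without WT replicate 1 the differences were 2.60 and 1.11, and neither passed. Their limma adjusted p there was 0.998, as it was for all 9 ligand, receptor and response genes. With the mean over probe sets Nox4 was at 0.73. Junb, an immediate target, was at -0.19, and at -0.07 without WT replicate 2. Of the 9 ligand, receptor and response genes, 0 passed without EKO replicate 2, and the smallest adjusted p was that of Tgfbr1, 0.61.

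**Figure D5:**
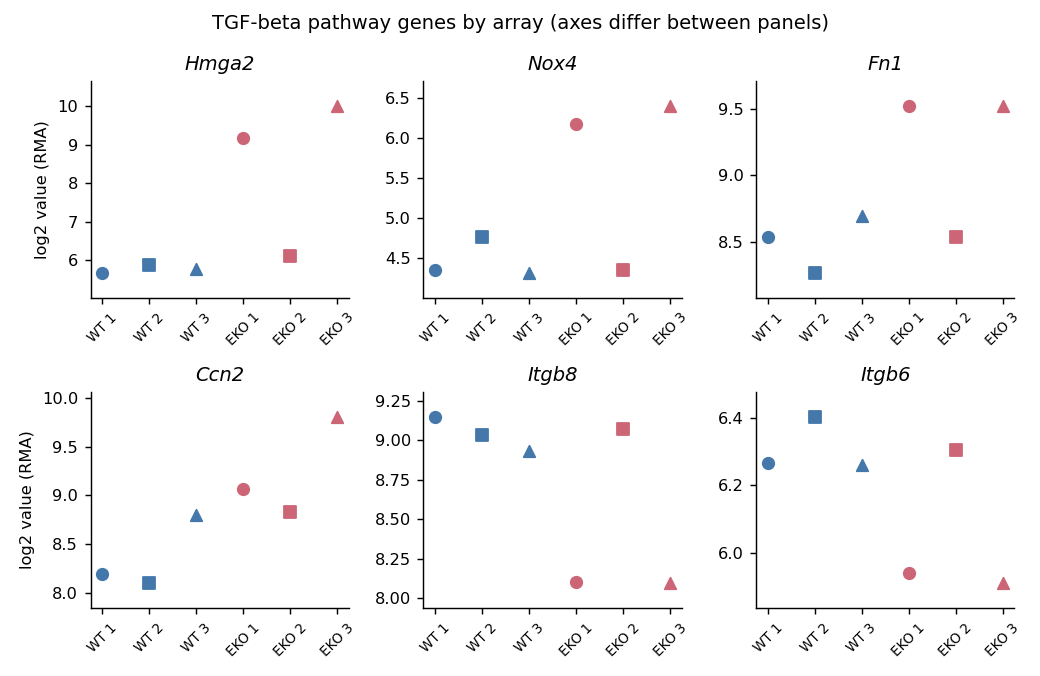
Log2 value by array of 6 of the 63 other pathway genes, with WT in blue, EKO in red and y axes that differ between panels. The 6 were picked with their values known, as genes that split the EKO arrays, and do not stand for the 63. Hmga2, Nox4 and Fn1 are high and Itgb8 and Itgb6 low in EKO replicates 1 and 3, with EKO replicate 2 near the WT values, and Ccn2 is highest in EKO replicate 3 at 9.81.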

How the data were processed

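Total RNA of tumour cells was measured on 6 arrays, 3 WT and 3 EKO by their titles. The values deposited by the authors are log2 levels per probe set, and the submitters' processing notes name RMA and Partek 6.6. RMA corrects background, equalises the arrays' distributions and narrows differences near the floor. No batch is named for these arrays, and none was tested.

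Of 45101 probe sets, 34945 with 1 gene symbol gave 18193 genes, each by its probe set of highest mean. Another 932 had several symbols, 9160 are unnamed here and 64 are controls, and none of these was used. No filter on low values was set. Groups were compared with limma 3.58.1 in R 4.3.3 (lmFit, eBayes, two-sided, Benjamini-Hochberg over all genes, threshold 0.05). The scripts were tested on simulated data. With 3 arrays per group, their number limits the precision.

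The genes and lists were chosen with earlier results of these data known. Named genes were all 9, Fabp5 and, of each list, those past the threshold and up to 3 by smallest p. For each of the 9 with an SD over the arrays of 0.3 or more, the 3 genes of smallest distance were named. Alternatives were a replicate block, the upper 50% of means, repeated quantile normalization, centred medians, variances fitted robustly along intensity, weights per array, a mean over probe sets, and each array left out.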

Additional observations from a re-analysis of the deposited data

How the results depend on the processing

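None of the 9 genes passed with limma under any of the 13 alternatives, the smallest adjusted p being 0.527, and Tgfbr3 and Smad7 had the same sign in all of them. So did Tgfbr1, though at 0.0018 with the mean over probe sets, and the other 6 changed sign in at least 1 alternative. A constant sign does not settle a direction, since all alternatives reuse the same arrays. The limma intervals, -0.89 to 0.09 for Tgfbr3 and -0.12 to 0.84 for Smad7, held 0, so none of the 9 has a settled direction. With a mean over probe sets Tgfb2 was at 0.10, Tgfbr2 at 0.0203, Skil at -0.10 and Smad2 at 0.0433. Tgfbr2 was at 0.0036 after repeated quantile normalization and at 0.0183 with array weights, and Skil was at -0.006 with array weights. With 1 array left out, Tgfb1 ran from -0.0761 to 0.0241, Tgfb2 from -0.19 to 0.15, Tgfb3 from -0.12 to 0.013, Tgfbr2 from -0.10 to 0.17, Tgfbi from -0.17 to 0.0345 and Skil from -0.0503 to 0.055. Likewise Pmel ran from -0.33 to 1.08, Mlana from -0.44 to 1.30 and Tyr from -0.51 to 1.36. Counts with 1 array left out ran from 1 to 42 for all genes and from 0 to 3 for the other pathway genes, both highest without EKO replicate 2. All genes gave 2 without WT replicate 2. The cause was not tested. The upper 50% of means left out Tgfb1, Tgfb2 and Tgfb3. Of 21 pathway genes named by rule 20 had the same sign throughout, Smad2 being the exception. Arrays that share a replicate number did not deviate together (r of -0.07, -0.09 and -0.34 across genes). The labels name no pairing, but with 3 arrays per group these values cannot exclude one. With the replicate block in limma 0 of 9 and 1 of all genes passed (Tgfbr3 adjusted p = 0.854, Smad7 adjusted p = 0.884). The block moved the SE both ways by gene. It fell from 0.174 to 0.107 for Tgfbr2 and from 0.285 to 0.103 for Ccn2, and rose from 0.203 to 0.239 for Smad7.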
